A study of Mus musculus with 24 samples.

Results

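The quantity described here is the difference between 2 sets of mouse strains in how lung gene expression responded to a TGF-β1 transgene. It was formed as the mean of TG minus WT over A/J, AKR/J and C57BL/6J, the 3 strains named as prone to fibrosis, less the mean of TG minus WT over 129, BALB/cJ and C3H, the 3 named as resistant, each strain counting equally, and it drew on all 24 of the 24 arrays of the series. A positive difference means that TG over WT was higher in the prone strains than in the resistant ones. It was estimated for 13499 genes, and 64 of them, 0.474%, passed the test, 34 upward and 30 downward.

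Each array held RNA of the right lung lobe of 1 mouse, and all mice, WT included, had drunk doxycycline for 2 weeks to switch on the transgene in its carriers. The prone set had 3 TG and 1 WT mouse of A/J, 3 TG and 1 WT mouse of AKR/J, and 2 TG and 2 WT mice of C57BL/6J. The resistant set had 3 TG and 1 WT mouse in each of 129, BALB/cJ and C3H. In all there were 8 TG and 4 WT mice in the prone set and 9 TG and 3 WT mice in the resistant set. The sources used here give neither what drives the transgene and in which cells nor whether mice were littermates. The sets follow the design text of the series. The fibrosis code carried by each sample contradicts it (by the key given with the code, 129, BALB/cJ and C3H would be the prone strains), and a reader who follows the code must turn every sign below. Strain and set cannot be told apart beyond these 6 strains. The deposited values are read as log2 intensities, and all levels and differences below are on that scale.

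TGF-β1 is secreted in a latent form, is released by integrins among other activators, and signals through receptor kinases and Smad proteins to genes of matrix synthesis. In lung it is known to drive fibroblasts to lay down collagen, to halt growth of many epithelial cells and to alter their differentiation. Inbred mouse strains are known to differ in how much scar the lung forms after injury.

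The tissue carried lung markers throughout. The mean level of 16 measured markers of alveolar type 2 cells stayed within 12.26 to 13.06 over all mice. Correlations between mice of a group ran from 0.9916 to 0.9972 (17 pairs). Tgfb1 itself was not analysed here, so the transgene was not checked in any mouse. The neutrophil list stood apart in 1 TG mouse of 129 (10.51, against 7.91 to 8.91 in the other 16 TG mice) and the platelet list in the WT mouse of BALB/cJ (9.76, against 8.13 to 8.62 in the other 6 WT mice).

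By the same fit, 3172 genes (23.5%) differed between TG and WT mice of the prone strains and 1444 (10.7%) between TG and WT mice of the resistant strains. The difference between the sets was called for fewer. Its SE had a median of 0.0944, and 71.7% of its variance came from the WT means, in which 5 strains have a single mouse. The count of 64 moved with single mice. It lay between 6 and 23 without the WT mouse of 129, A/J, BALB/cJ or C3H, either WT mouse of C57BL/6J, or TG mouse 2 of 129, 1 of AKR/J, 1 or 2 of BALB/cJ, 1 of C3H or 1 of C57BL/6J. It was 36 without TG mouse 2 of C3H and 37 without TG mouse 2 of AKR/J. It was 122 and 194 without TG mouse 2 or 3 of A/J, 128 without TG mouse 3 of BALB/cJ and 425 without the WT mouse of AKR/J. Leaving out the only WT mouse of a strain removes that strain from its set. With a single TG effect per set in the model, limma called 0 genes, against 1322 at an unadjusted p under 0.05. Of the 39 genes that were both called and chosen for naming, 36 kept their sign in every alternative that tested them. Most had 42 alternatives. The filter on dim genes removed 7 of the 39 (Hmmr, Ncapg2, Kif2c, Cstad, Gstm6, Ctla4 and Nlrp1a), which had 41. The exceptions among the 39 were Lama1, Thbs2 and Ctla4, each of which turned only when AKR/J alone was set against BALB/cJ alone. Of the other called genes Bbof1, Cdkl4, Kif27, P2ry12, P2ry14, Pcdhb17 and Shc4 also turned in an alternative. All were picked by their call in these same arrays, and most alternatives share nearly all the mice, so kept signs are no independent support.

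**Figure D1:**
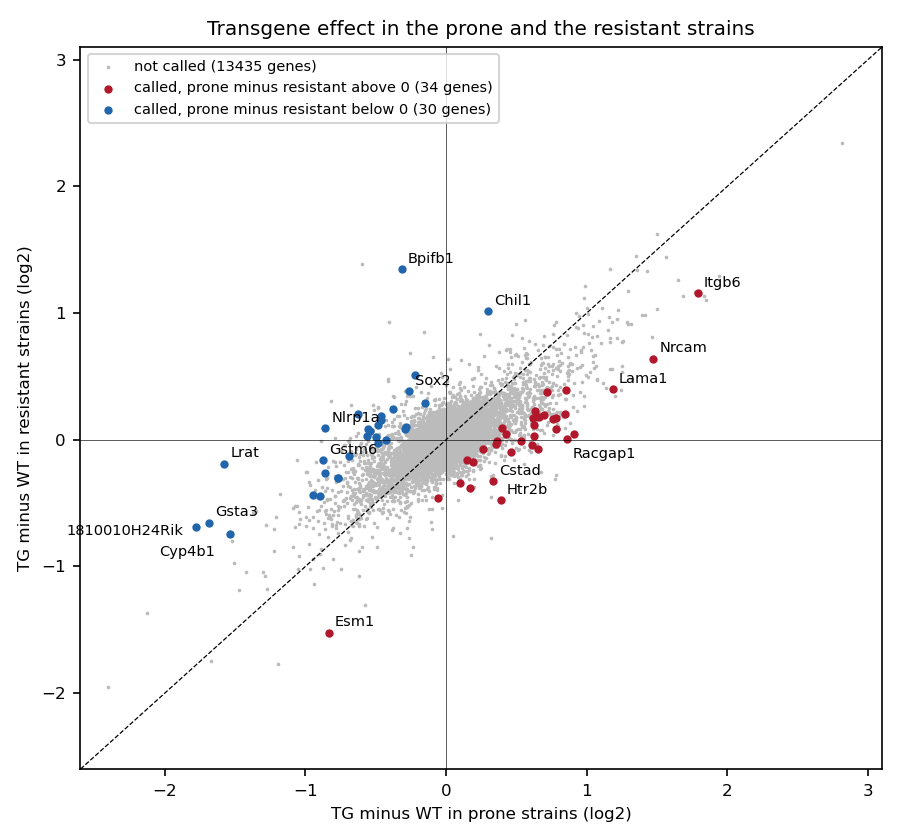
TG minus WT in the prone strains (x axis, log2) against TG minus WT in the resistant strains (y axis, log2), 1 point per gene, with the dashed line at equal effects. The 34 genes called upward lie below the line and the 30 called downward lie above it, and Esm1 is called upward although it is lower in TG than in WT mice of both sets.

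Of the 34 genes called upward (0.252% of all genes), 30 were higher in TG than in WT mice of the prone strains by that set's own test, and 20 were called in the prone set and not in the resistant one. Among the 30 called downward (0.222%), 26 were lower in TG than in WT mice of the prone strains, and 18 were called in the prone set and not in the resistant one. For 45 of the 64 genes the effects of the 3 prone strains all lay on one side of those of the 3 resistant strains, 22 above and 23 below. Such separation was found in 6.2% (above) and 4.63% (below) of all genes, and it is not independent of the call.

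**Figure D2:**
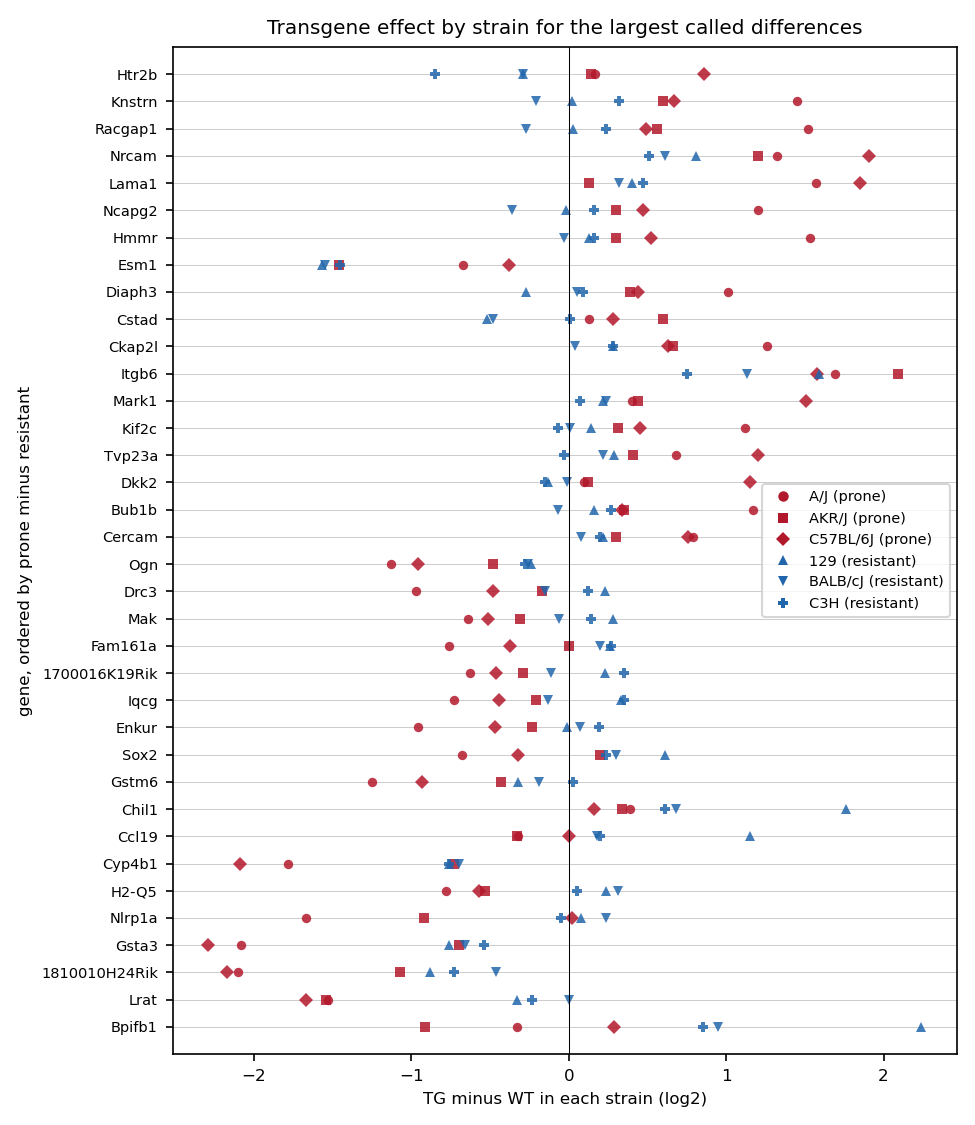
TG minus WT (x axis, log2) in each of the 6 strains for the 36 genes named for the largest called differences, ordered by the difference (y axis). Red symbols are prone and blue symbols resistant strains. For Lrat the prone strains lie at -1.67 to -1.53 and the resistant ones at -0.33 to 0.00, while for Esm1 and Cyp4b1 prone AKR/J lies among the resistant strains.

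A list of mitosis genes, the largest by measured genes, held the most genes called upward. Of its 62 measured genes, 6 were called upward and 0 downward, against 0.252% and 0.222% of all genes. They were Racgap1, which organises the central spindle and the cleavage furrow, Ncapg2, a condensin II subunit, and Hmmr, a spindle and hyaluronan-binding protein. The others were Ckap2l, a spindle pole protein, Kif2c, a microtubule depolymerising kinesin, and Bub1b, a spindle checkpoint kinase. The difference was above 0 for 61 of the 62, with a median of 0.40, against 53.5% of all genes above 0 and a median of 0.01. By set, 55 of the 62 were higher in TG than in WT mice of the prone strains (12% of all genes) and 4 of the 62 in the resistant strains (4.92% of all genes), with 0 lower in either.

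Racgap1 had 9.09, 8.57 and 8.94 in TG mice of A/J, against 7.36 in the WT mouse. AKR/J had 7.73, 7.78 and 7.52 in TG mice and 7.11 in the WT mouse, and C57BL/6J had 8.23 and 8.18 in TG mice and 7.82 and 7.61 in WT mice. In the resistant strains TG mice ranged from 7.36 to 8.05 with a median of 7.59, and the WT mice had 7.54 (129), 7.72 (BALB/cJ) and 7.60 (C3H). All 8 prone TG mice were above the WT mice of their strain, whereas 4 of 9 resistant TG mice were above and 5 below. The difference was 0.85 ± 0.14 (SE; limma adjusted p = 0.018). It was called in 32 of 42 alternatives, and without the WT mouse of A/J it was 0.52 (adjusted p = 0.29).

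Hmmr had a lowest, median and highest level of 5.48, 6.17 and 7.01 in prone TG mice, against 5.36, 5.28, 5.64 and 5.65 in prone WT mice. Resistant TG mice had 5.25, 5.59 and 5.89, against 5.34, 5.52 and 5.61 in WT mice. TG mice of A/J (6.63 to 7.01) and C57BL/6J (6.06 and 6.27) lay above all other mice, whereas those of AKR/J (5.48 to 5.66) overlapped the resistant mice. The difference was 0.70 ± 0.13 (adjusted p = 0.039), and 0.32 without the WT mouse of A/J. Among the other 4 called members it was 0.73 ± 0.14 for Ncapg2, 0.65 ± 0.12 for Ckap2l, 0.60 ± 0.12 for Kif2c and 0.50 ± 0.09 for Bub1b. With the WT mouse of A/J left out it was 0.46 for Ncapg2, 0.35 for Kif2c and 0.23 for Bub1b, and none of these was then called (adjusted p = 0.38, 0.43 and 0.48). For Bub1b the strains of a set also differed among themselves (moderated F, limma adjusted p = 0.029), with 1.17 in A/J, 0.35 in AKR/J and 0.34 in C57BL/6J.

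A/J carried the largest mitotic effect. The list's median TG minus WT was 0.98 in A/J, 0.30 in AKR/J and 0.37 in C57BL/6J, against 0.14 in 129, -0.01 in BALB/cJ and 0.18 in C3H. Over the 62 genes the mean level lay at 6.99 to 8.28 in prone TG mice and 6.78 to 7.27 in prone WT mice, against 6.94 to 7.32 in resistant TG mice and 6.90 to 7.07 in resistant WT mice. Without A/J the list's median difference was 0.23, and 0 of its members were called, where 8 of all 13499 genes were. Without AKR/J it was 0.55, and 27 members were called, where 363 of all genes were. Over all 42 alternatives the median stayed between 0.23 and 0.55, and between 0 and 30 members were called upward and 0 downward. In whole lung, more dividing cells and more RNA per dividing cell cannot be told apart.

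Genes of DNA replication had differences of the same sign, but none was called, as the share of 0.474% over all genes would give. All but 1 of 22 measured genes had a difference above 0, with a median of 0.35 (0.16 without the WT mouse of A/J), and the smallest p-value was that of Pole, the catalytic subunit of polymerase epsilon, at 0.68 ± 0.15 (adjusted p = 0.055). Ccna2, the cyclin of S phase and early mitosis, had 0.85 ± 0.23 and missed the threshold (adjusted p = 0.11). Its TG effect was 0.77 to 2.07 in the prone strains and -0.12 to 0.92 in the resistant ones. Outside the lists, Knstrn, a kinetochore and spindle protein, differed by 0.87 ± 0.14 (adjusted p = 0.018) and Diaph3, a formin that nucleates actin, by 0.66 ± 0.13 (adjusted p = 0.039). For both, all 3 prone strains lay above all 3 resistant ones.

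The promoters of the called mitosis genes shared a cell cycle element that is frequent in the whole list. Of 49 mitosis genes with a RefSeq promoter (GRCm38.p6, 250 bases before to 50 after the start of the gene), 57.1% held the letters TTTGAA on either strand, the CHR element through which the DREAM and B-MYB complexes are known to act, against 18.1% of all 27025 promoters and 15.1% of those of measured genes. CCAAT, the box bound by NF-Y, was in 65.3%, against 37.9% of all promoters. All 6 called members held TTTGAA. Since the list itself is rich in this element, the match describes the list and not the difference between sets. In the 4 promoters printed here to show the arrangement, those of Racgap1, Hmmr, Ckap2l and Bub1b, capitals mark TTTGAA and CCAAT or their reverse complements TTCAAA and ATTGG, which do not overlap.
Racgap1 promoter (chr15:99651607-99651906, minus strand): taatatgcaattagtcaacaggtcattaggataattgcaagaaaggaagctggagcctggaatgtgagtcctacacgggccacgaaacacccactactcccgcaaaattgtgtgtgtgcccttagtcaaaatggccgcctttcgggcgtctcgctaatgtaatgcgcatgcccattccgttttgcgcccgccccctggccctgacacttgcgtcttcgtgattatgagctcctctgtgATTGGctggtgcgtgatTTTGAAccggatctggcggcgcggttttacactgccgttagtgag
Hmmr promoter (chr11:40733388-40733687, minus strand): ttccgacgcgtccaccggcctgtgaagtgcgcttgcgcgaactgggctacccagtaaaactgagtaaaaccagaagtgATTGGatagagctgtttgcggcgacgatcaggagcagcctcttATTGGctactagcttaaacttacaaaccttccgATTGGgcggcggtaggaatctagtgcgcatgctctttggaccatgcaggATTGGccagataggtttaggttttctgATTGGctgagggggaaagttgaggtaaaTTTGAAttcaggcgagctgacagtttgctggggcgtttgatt
Ckap2l promoter (chr2:129297163-129297462, minus strand): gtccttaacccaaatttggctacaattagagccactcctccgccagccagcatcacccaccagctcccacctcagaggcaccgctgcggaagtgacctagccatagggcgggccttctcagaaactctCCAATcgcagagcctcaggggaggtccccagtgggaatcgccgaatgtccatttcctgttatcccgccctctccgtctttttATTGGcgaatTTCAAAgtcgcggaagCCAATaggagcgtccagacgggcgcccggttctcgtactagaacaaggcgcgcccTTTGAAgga
Bub1b promoter (chr2:118597961-118598260, plus strand): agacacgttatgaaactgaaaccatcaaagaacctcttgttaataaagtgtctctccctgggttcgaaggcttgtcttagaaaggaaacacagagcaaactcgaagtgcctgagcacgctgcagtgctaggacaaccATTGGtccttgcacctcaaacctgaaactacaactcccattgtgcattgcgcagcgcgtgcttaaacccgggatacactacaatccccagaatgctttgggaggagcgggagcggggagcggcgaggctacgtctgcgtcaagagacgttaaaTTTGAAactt
Each window reads 5′ to 3′ on the strand of the gene, which starts at base 251. TTTGAA lies after the start, at base 256 in Racgap1, 259 in Hmmr, 292 in Ckap2l and 291 in Bub1b. Ckap2l has another before the start, at base 221 on the opposite strand. Hmmr has 5 CCAAT boxes in this window, all on the opposite strand. Of the other motifs searched on both strands, the SMAD site CAGAC was in 59.3% of 27 promoters of genes called upward and 52% of 25 called downward, against 49.7% of all promoters, and the AP-1 site TGANTCA was in 14.8% and 4%, against 7.93%.

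**Figure D3:**
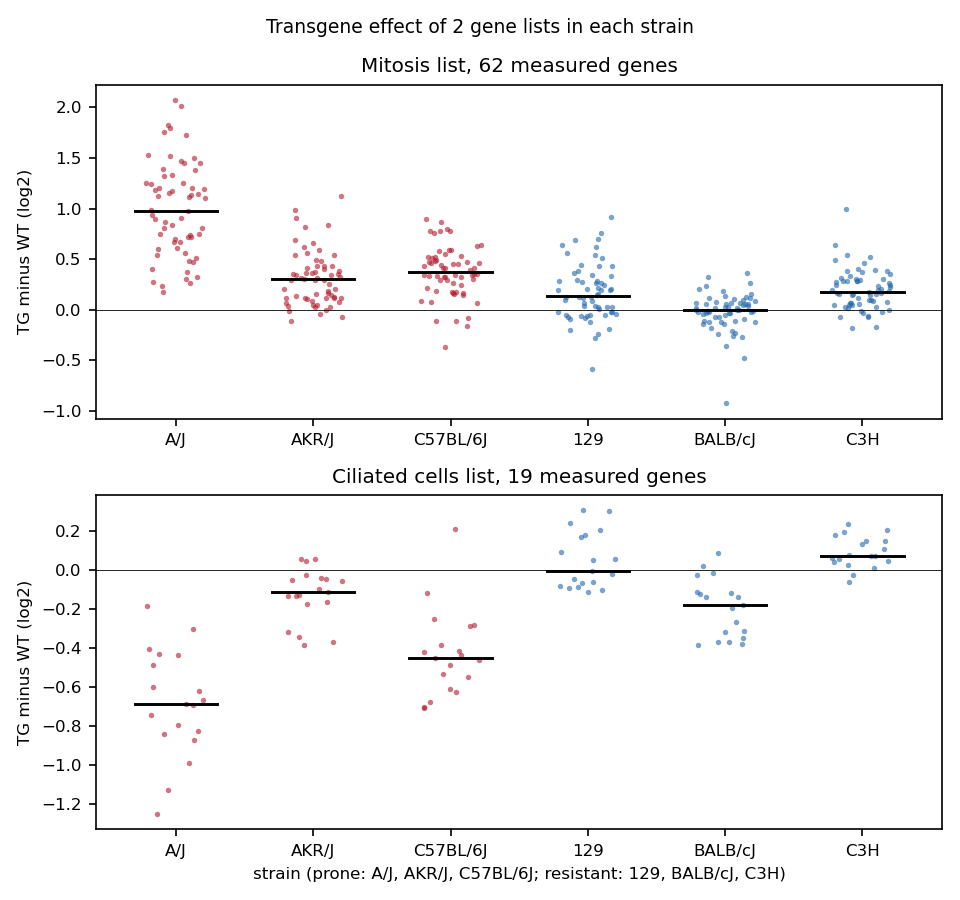
TG minus WT (y axis, log2) in each strain (x axis) for the 62 measured genes of the mitosis list (top) and the 19 of the ciliated cell list (bottom). Points are genes and bars are medians, which stand at 0.98, 0.30 and 0.37 in the prone strains for mitosis and at -0.69, -0.11 and -0.45 for ciliated cells.

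Single genes of matrix and adhesion were also called upward, 1 of 32 elastic fibre and matrix glycoprotein genes (Lama1) and 1 of 17 matricellular genes (Thbs2). The upward share over all genes was 0.252%, and the first of these lists also held 1 gene called downward (Ogn). Lama1, the laminin α1 chain of basement membranes, differed by 0.79 ± 0.16 (adjusted p = 0.04). Its TG mice had 8.85, 8.55 and 9.08 in A/J and 9.72 and 9.18 in C57BL/6J, but 7.38, 7.37 and 7.38 in AKR/J, against 7.34 to 7.84 in resistant TG mice. Prone WT mice had 7.26 in A/J, 7.25 in AKR/J and 7.85 and 7.35 in C57BL/6J, and resistant WT mice had 7.11, 7.04 and 7.32. The AKR/J mice thus lay with the resistant strains, and the strains of a set differed among themselves (adjusted p = 0.028). Thbs2, the matricellular protein thrombospondin 2, had the same layout (0.50 ± 0.09, with 1.06 in A/J, 0.06 in AKR/J and 0.96 in C57BL/6J; spread within sets, adjusted p = 0.021). Without the WT mouse of AKR/J, which takes AKR/J out of its set, the difference was 1.31 for Lama1 and 0.82 for Thbs2, and without that of A/J it was 0.32 for Thbs2 (adjusted p = 0.35).

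Nrcam, a neuronal cell adhesion molecule of the immunoglobulin family, differed by 0.83 ± 0.17 (adjusted p = 0.04) and rose in both sets, by 1.47 in prone and 0.64 in resistant strains. Its level in TG mice was 9.73 to 10.70 in the prone strains, against at most 9.18 in their WT mice, and 8.01 to 9.85 in the resistant strains, against 7.55 to 9.26 in their WT mice. Itgb6, the β6 chain of an integrin of epithelial cells that releases latent TGF-β1, was higher in all 8 prone and all 9 resistant TG mice than in the WT mice of their strains. It had 11.77 to 12.33 in prone TG mice and 9.79 to 10.77 in prone WT mice, against 11.43 to 11.99 in resistant TG mice and 10.06 to 11.01 in resistant WT mice. The difference was 0.63 ± 0.13 (adjusted p = 0.04), with effects of 1.79 in prone and 1.16 in resistant strains. The 129 strain (1.59) lay within the prone range of 1.58 to 2.09. Of 9 measured genes of transitional alveolar epithelium Itgb6 was the only one called, against 0.474% of all genes. All 9 had a difference above 0, with a median of 0.21.

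Collagen genes are the best known targets of TGF-β1 in lung. Of 25 genes of collagens and their processing, 18 rose in prone strains (12% of all genes) and 10 in resistant strains (4.92%). For the difference, with a median of 0.14, 0 were called, where the share of 0.474% over all genes would also give none in a list of this size. Col1a1 rose by 1.25 in prone and 0.77 in resistant strains, with a difference of 0.48 ± 0.13 (adjusted p = 0.1; 95% interval 0.22 to 0.75 without adjustment) and all 3 prone strains above all 3 resistant ones. Col3a1, the partner of Col1a1 in fibrils, rose by 1.05 and 0.90, and the difference was 0.15 ± 0.11 (adjusted p = 0.67; interval -0.07 to 0.37). Pmepa1, a feedback target of TGF-β signalling, rose by 1.29 and 1.17, with a difference of 0.12 ± 0.13 (adjusted p = 0.82; interval -0.16 to 0.40). Among 22 measured Smads, feedback and target genes, 0 were called, as that share would give, and the median difference was 0.02. Of 20 ligands, activators and receptors of TGF-β, 15 rose in prone (12% of all genes) and 11 in resistant strains (4.92%). Only Itgb6 of them was called for the difference, against 0.474% of all genes.

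Igf1, Lox, Ccn2 and Fabp7, further fixed examples of the TG response, were not called for the difference. The difference was 0.65 ± 0.19 for the growth factor Igf1 (adjusted p = 0.13), 0.42 ± 0.19 for the collagen cross-linking enzyme Lox (0.41), 0.40 ± 0.17 for the matricellular gene Ccn2 (0.36) and 0.47 ± 0.40 for the fatty acid carrier Fabp7 (0.74). These p-values do not show that the sets responded alike. For Igf1 the interval reached 1.05 and for Fabp7 it reached 1.31.

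A smaller set of genes went in opposite directions. Htr2b, a serotonin receptor, was higher in TG than in WT mice of the prone strains (0.39 ± 0.10, adjusted p = 0.007) and lower in TG than in WT mice of the resistant strains (-0.48 ± 0.10, adjusted p = 0.0051), with a difference of 0.87 ± 0.14 (adjusted p = 0.018). Its prone TG mice had 7.45, 7.31 and 7.32 in A/J, 6.64, 6.76 and 7.02 in AKR/J and 7.93 and 7.77 in C57BL/6J, against 7.19, 6.67, 6.89 and 7.09 in the WT mice in the same strain order. Resistant TG mice had 8.08, 7.91 and 7.79 in 129, 7.13, 6.91 and 7.24 in BALB/cJ and 8.51, 8.06 and 8.16 in C3H, against 8.22, 7.38 and 9.10 in the WT mice. All 9 resistant TG mice lay below the WT mouse of their strain, and 7 of 8 prone TG mice lay above. The mean level was lower in the prone set in both genotypes, with prone minus resistant at -0.42 among TG and -1.28 among WT mice. The WT mouse of C3H, at 9.10, was the highest of all 24, and without it the difference was 0.68 (adjusted p = 0.11).

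Cstad, a gene named for its dependence on T cell activation, differed by 0.66 ± 0.09, with effects of 0.34 in prone and -0.33 in resistant strains (adjusted p of the difference = 0.0092, the smallest of all genes together with those of Sox2 and 1810010H24Rik). It was called in 36 of the 41 alternatives that tested it, the largest number among the named genes. Its effect was -0.52 in 129 and -0.48 in BALB/cJ but 0.01 in C3H. Prone minus resistant was 0.20 among TG mice and -0.46 among WT mice. Dkk2, a secreted antagonist of Wnt signalling, rose by 0.46 in the prone strains and differed by 0.56 ± 0.09 (adjusted p = 0.015). Its effect came to 1.15 in C57BL/6J, 0.10 in A/J and 0.12 in AKR/J, against -0.13, -0.01 and -0.15 in 129, BALB/cJ and C3H, and without C57BL/6J the difference was 0.21 (adjusted p = 0.53).

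Esm1, a proteoglycan secreted by endothelium, counted as higher because it fell less in the prone strains. It fell by 0.84 in TG mice of the prone strains and by 1.52 in those of the resistant strains, a difference of 0.69 ± 0.14 (adjusted p = 0.039). TG mice had 6.88 to 8.02 in the prone strains and 7.01 to 7.54 in the resistant ones, whose ranges overlap. WT mice had 7.68 (A/J), 9.37 (AKR/J), 7.57 and 7.69 (C57BL/6J), against 8.95, 8.89 and 8.68 in 129, BALB/cJ and C3H. Of 18 measured endothelial markers it was the only one called, against 0.474% of all genes. The list leaned the other way, with 12 of the 18 below 0 and a median difference of -0.11. Of 11 measured genes of T and NK cells only Ctla4, an inhibitory receptor of T cells, was called (0.44 ± 0.08), against 0.474% of all genes. The list leaned the other way, with 9 of the 11 below 0 and a median of -0.15. For Ctla4, prone minus resistant was 0.04 among TG mice and -0.41 among WT mice. Its effect was -0.15 in prone AKR/J and -0.08 in resistant BALB/cJ. Of 25 chemokines and receptors, Cxcl16, a chemokine of macrophages and epithelium, was called upward (0.34 ± 0.07) and Ccl19 downward. P2ry12, an ADP receptor of platelets that was chosen after its values were seen, was called at 0.55 ± 0.11, and its BALB/cJ WT mouse, which also had the high platelet list, stood at 8.57, against 6.79 to 7.51 in the other 6 WT mice. Its TG effect was -1.45 in BALB/cJ and 0.09 to 0.22 in the other 5 strains, and without that mouse the difference was 0.02 (adjusted p = 0.99). With the WT mouse of 129 left out it was 0.85 (adjusted p = 0.025).

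Each difference can be split into the difference among TG mice and the difference among WT mice, and the second is subtracted from the first. For the genes called upward the part among TG mice was larger in 24 of 34. For those called downward the part among WT mice was larger in 22 of 30. Over the mitosis list the median was 0.48 among TG mice and 0.03 among WT mice. Over the 19 measured ciliated cell genes it was -0.21 among TG mice and 0.15 among WT mice. The WT part rests on 4 prone and 3 resistant mice, and these enter every difference, upward or downward, with the same weights.

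**Figure D4:**
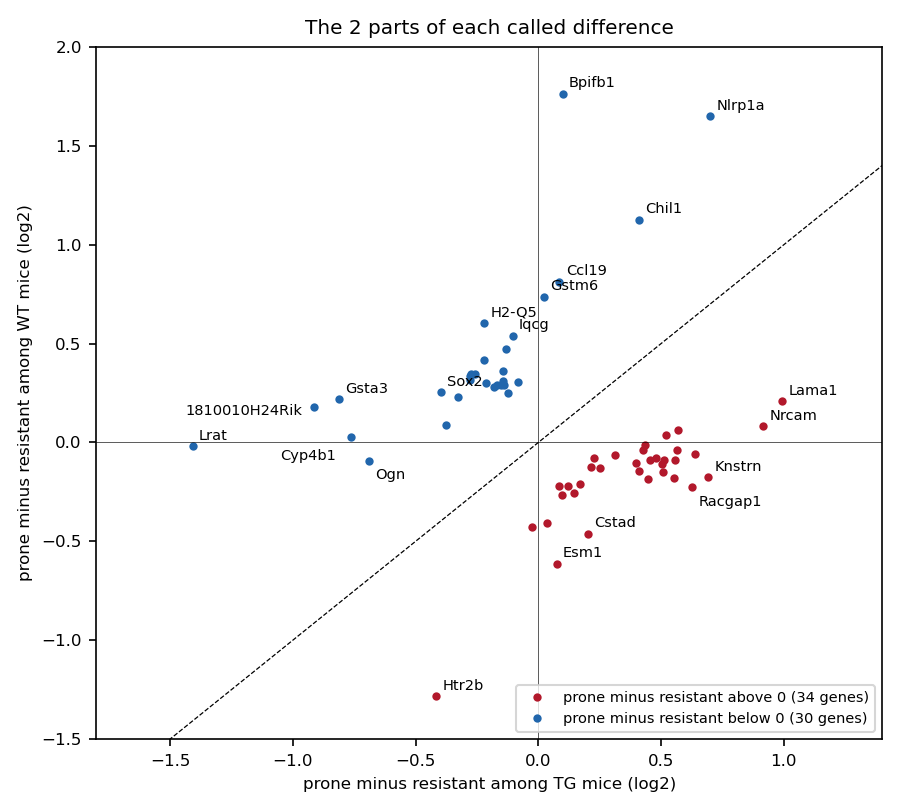
Prone minus resistant among TG mice (x axis, log2) against prone minus resistant among WT mice (y axis, log2) for the 64 called genes, with the dashed line where the parts are equal and the TG effects do not differ. Lrat lies at -1.41 and -0.02, while Bpifb1 lies at 0.10 and 1.76.

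Lrat, the enzyme that esterifies retinol for storage, had the largest part among TG mice (-1.41) of the 8 downward genes in which that part was the larger. The others were 1810010H24Rik, Gsta3, Cyp4b1, Ogn, Sox2 and, chosen after their values were seen, Plpp3 and Eno4. Its TG mice had 10.97, 10.34 and 10.74 in A/J, 10.58, 11.19 and 11.02 in AKR/J and 9.25 and 10.25 in C57BL/6J, against WT levels of 12.21, 12.47, 11.32 and 11.52 in the same order. In the resistant strains TG mice had 11.73, 12.45 and 11.77 in 129, 11.81, 12.02 and 11.24 in BALB/cJ and 11.91, 11.81 and 12.02 in C3H, against 12.31, 11.70 and 12.14 in the WT mice. Every prone TG mouse was below every resistant TG mouse, and the WT mice of the sets overlapped. The effect was -1.53 in A/J, -1.54 in AKR/J and -1.67 in C57BL/6J, against -0.33 in 129, 0.00 in BALB/cJ and -0.23 in C3H. The difference was -1.39 ± 0.29 (adjusted p = 0.043), with no call of spread within sets (adjusted p = 0.99). With the strain as the unit it was the only gene of all called (-1.39 ± 0.10, adjusted p = 0.014). Its spread between mice is wide, and in the fit over mice it was called in 14 of 42 alternatives, with a value between -1.56 and -1.22 whichever mouse was left out. It was the only called gene among 34 of fatty acid and retinoid metabolism (0.474% of all genes), whose median difference was -0.04.

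A few enzymes of foreign compound metabolism were called downward. Cyp4b1, a cytochrome P450 abundant in lung, fell by 1.54 in prone and by 0.74 in resistant strains, a difference of -0.79 ± 0.15 (adjusted p = 0.039). Gsta3, a glutathione transferase, fell by 1.69 and 0.65, a difference of -1.03 ± 0.20 (adjusted p = 0.039). The same layout held for both. In Gsta3, TG mice had 8.44, 8.83 and 9.15 in A/J and 8.37 and 8.58 in C57BL/6J, but 10.28, 10.36 and 10.58 in AKR/J, against 9.67 to 10.42 in resistant TG mice. WT mice had 10.88, 11.10, 10.94 and 10.60 in the prone strains and 10.71, 10.77 and 10.61 in the resistant ones. AKR/J thus overlapped the resistant strains, and the direction of the difference was that of A/J and C57BL/6J. When AKR/J was set against BALB/cJ alone, the difference was -0.04 for Gsta3 and -0.02 for Cyp4b1. Without the WT mouse of AKR/J it was -1.20 for Cyp4b1.

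1810010H24Rik, a gene with no role given here, fell by 1.78 and 0.69, a difference of -1.09 ± 0.15 (adjusted p = 0.0092). It had 9.43 to 10.88 in prone TG mice against 11.61 to 11.95 in prone WT mice, and 10.60 to 11.19 in resistant TG mice against 11.32 to 11.93 in resistant WT mice. All 17 TG mice were below the WT mice of their strain. It was called in 34 of 42 alternatives. Gstm6, another glutathione transferase, differed by -0.71 ± 0.11 (adjusted p = 0.015). Of its difference 0.03 lay among TG mice and 0.74 among WT mice. Probe sets of these transferases may measure more than 1 copy. In the list of cytochromes and aldehyde metabolism 1 of 26 genes was called for the difference (0.474% of all genes), with a median of -0.21. In that list 17 fell in TG mice of the prone strains (11.5% of all genes) and 11 in those of the resistant strains (5.78%). In that of glutathione and NRF2 genes 2 of 28 were called (0.474% of all genes), with a median of -0.08.

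Sox2 and Bpifb1, both known from airway epithelium, were also among the downward calls. Sox2, a transcription factor of conducting airway epithelium, was lower in TG than in WT mice of the prone strains (-0.27 ± 0.06, adjusted p = 0.0038) and higher in those of the resistant strains (0.39 ± 0.06, adjusted p = 0.00084). Its TG mice had 8.42, 8.48 and 8.45 in A/J, 8.13, 8.15 and 8.17 in AKR/J and 8.41 and 8.21 in C57BL/6J, against 9.13, 7.95, 8.55 and 8.70 in the WT mice. Resistant TG mice had 8.92, 8.82 and 8.75 in 129, 8.63, 8.69 and 8.43 in BALB/cJ and 8.80, 8.61 and 8.64 in C3H, against 8.22, 8.28 and 8.44 in the WT mice. All 9 resistant TG mice were above the WT mouse of their strain. In AKR/J, where the WT mouse was the lowest of all 24, the 3 TG mice were above it as well, so the prone fall was that of A/J (-0.68) and C57BL/6J (-0.32). The difference was -0.65 ± 0.09 (adjusted p = 0.0092), called in 35 of 42 alternatives, and the strains of a set differed among themselves (adjusted p = 0.046). Without the WT mouse of A/J it was -0.44 (adjusted p = 0.16).

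Bpifb1, a secreted protein of airway goblet and gland cells, had the largest difference of all called genes, -1.66 ± 0.33 (adjusted p = 0.039). It had 11.98, 11.81 and 12.67 in TG mice of A/J, 10.13, 9.93 and 10.61 in those of AKR/J and 11.74 and 11.83 in those of C57BL/6J, against 12.49, 11.13, 11.65 and 11.34 in the WT mice. Resistant TG mice had 11.46, 11.72 and 11.63 in 129, 11.03, 10.88 and 10.91 in BALB/cJ and 11.58, 11.99 and 10.40 in C3H, against 9.37, 9.98 and 10.47 in the WT mice. TG mice of the sets overlapped, and every prone WT mouse was above every resistant one. The TG effect was called in the resistant strains (1.35 ± 0.24, adjusted p = 0.0016) and not in the prone ones (-0.32 ± 0.23, adjusted p = 0.38). Of 12 measured markers of club and goblet cells it was the only one called, against 0.474% of all genes. But all 12 had a difference below 0, with a median of -0.46. That median was -0.22 without the WT mouse of A/J, -0.62 without that of AKR/J and 0.02 for AKR/J against BALB/cJ alone, and over all 42 alternatives it lay between -0.68 and 0.02. The mean level of those 12 was 10.10 to 10.74 in prone TG mice and 10.55 to 11.41 in prone WT mice, against 10.12 to 10.99 in resistant TG mice and 9.87 to 10.67 in resistant WT mice. Median prone minus resistant over the 12 was 0.04 among TG mice and 0.35 among WT mice. The part of airway tissue in the sampled lobe was not tested.

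Chil1, a chitinase-like lectin, had the same form. It rose in all 17 TG mice, by 0.30 in prone and 1.02 in resistant strains, and its WT level was higher in the prone strains (13.53 to 13.81) than in the resistant ones (11.32, 13.14 and 13.08). The resistant effect was 1.76 in 129, against 0.68 in BALB/cJ and 0.61 in C3H. Prone TG mice reached 14.21, where the highest value over all probe sets was 14.75. The difference was -0.72 ± 0.12 (adjusted p = 0.031), and without the WT mouse of 129, the one at 11.32, it was -0.35 (adjusted p = 0.38). Ccl19, a chemokine that draws T cells and dendritic cells, differed by -0.73 ± 0.15, H2-Q5, a class I histocompatibility gene, by -0.83 ± 0.14 and the inflammasome sensor Nlrp1a by -0.95 ± 0.18. In these 3 genes the part among WT mice, 0.81, 0.60 and 1.65, exceeded that among TG mice, 0.09, -0.22 and 0.70. Nlrp1a had effects of -1.67 in A/J and -0.92 in AKR/J but 0.02 in C57BL/6J, which lies within the resistant range of -0.05 to 0.24, and without the WT mouse of A/J its difference was -0.54 (adjusted p = 0.43). Its level was low in the resistant strains, at 5.06 to 5.34 in TG and 4.92 to 5.23 in WT mice. The median over probe sets was 7.8, and the filter on dim genes removed Nlrp1a. Ccl19 had 1.15 in 129, against 0.18 in BALB/cJ and 0.20 in C3H, and without the single WT mouse of 129 its difference was -0.41 (adjusted p = 0.39). Which copy of the Nlrp1, H2-Q and chitinase-like families a probe set measures is uncertain, and sequence variants between strains can alter probe binding.

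Several of the genes called downward are known from cilia and flagella. They were Iqcg and Drc3, of the nexin-dynein regulatory complex, Enkur, a protein of the doublet microtubules, Mak, a kinase of ciliary length, Fam161a, a ciliary base protein, and, chosen after their values were seen, the adenylate kinase Ak7, the kinesin Kif27 and the basal body gene Bbof1. Their differences lay between -0.64 (Iqcg and Enkur) and -0.46 (Bbof1 and Kif27). That of Bbof1 was -0.12 (adjusted p = 0.81) and that of Drc3 -0.39 (adjusted p = 0.35) without the WT mouse of A/J, and without that of AKR/J that of Bbof1 was -0.76. Enkur had 7.13 to 7.59 in prone TG mice, with a median of 7.35, against 8.32, 7.51, 7.92 and 7.86 in prone WT mice. Resistant TG mice had 7.22 to 7.88, with a median of 7.62, against 7.63, 7.31 and 7.54 in resistant WT mice. All 8 prone TG mice were below their WT mice, whereas 6 of 9 resistant ones were above. The difference was -0.64 ± 0.11 (adjusted p = 0.039). Its part among WT mice (0.42) was larger in size than that among TG mice (-0.22). The same held for the other cilium genes named here, with 0.54 and -0.10 in Iqcg and 0.35 and -0.26 in Mak.

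The ciliated cell list pointed the same way, though none of its 19 measured members was called. The share of 0.474% over all genes would also give none. All 19 had a difference below 0, with a median of -0.40, and 16 fell in the prone strains (11.5% of all genes) and 0 in the resistant ones (5.78%). The smallest p-value was that of Dnah5, an outer dynein arm heavy chain (-0.53 ± 0.13, adjusted p = 0.07). The list's median effect was -0.69 in A/J, -0.11 in AKR/J and -0.45 in C57BL/6J, against -0.01 in 129, -0.18 in BALB/cJ and 0.07 in C3H, so AKR/J and BALB/cJ did not differ in the direction of the sets. When set against each other alone they gave a median of 0.08. The mean level of the 19 genes was 8.20 to 8.71 in prone TG mice and 8.46 to 9.07 in prone WT mice, against 8.33 to 8.84 in resistant TG mice and 8.60 to 8.65 in resistant WT mice. Without the WT mouse of A/J, at 9.07, the median difference was -0.27, and without that of AKR/J it was -0.56, with 10 members called. The number of ciliated cells, their RNA per cell and the part of airway tissue in the sampled lobe cannot be told apart here.

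A short element of cilium gene promoters was looked up after these values were seen. GTTGCC, a core of the sites bound by RFX factors, was on either strand in 37.5% of 16 promoters of the ciliated cell list and in 20% of 25 promoters of genes called downward, against 12.7% of all promoters. The mitosis list held it in 18.4% of 49 promoters. Of the cilium genes above, Drc3, Mak and Fam161a had 0 in their promoters. GTTGCC, or its reverse complement GGCAAC, is shown in capitals for Iqcg, which has 2, and Enkur, which has 1.
Iqcg promoter (chr16:33056137-33056436, minus strand): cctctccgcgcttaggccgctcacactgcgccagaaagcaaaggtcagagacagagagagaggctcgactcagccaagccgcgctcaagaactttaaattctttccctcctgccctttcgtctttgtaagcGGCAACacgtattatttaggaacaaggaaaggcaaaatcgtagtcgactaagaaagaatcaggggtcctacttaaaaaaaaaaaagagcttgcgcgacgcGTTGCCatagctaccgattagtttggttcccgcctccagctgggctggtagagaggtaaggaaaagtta
Enkur promoter (chr2:21205316-21205615, minus strand): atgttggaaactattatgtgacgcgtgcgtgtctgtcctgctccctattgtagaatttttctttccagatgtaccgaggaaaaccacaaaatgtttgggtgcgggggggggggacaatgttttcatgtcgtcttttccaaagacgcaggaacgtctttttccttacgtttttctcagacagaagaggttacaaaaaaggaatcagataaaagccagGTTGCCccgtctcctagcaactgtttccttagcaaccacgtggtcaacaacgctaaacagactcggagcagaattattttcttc
Both windows are read 5′ to 3′ on the strand of the gene, from RefSeq (GRCm38.p6).

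**Figure D5:**
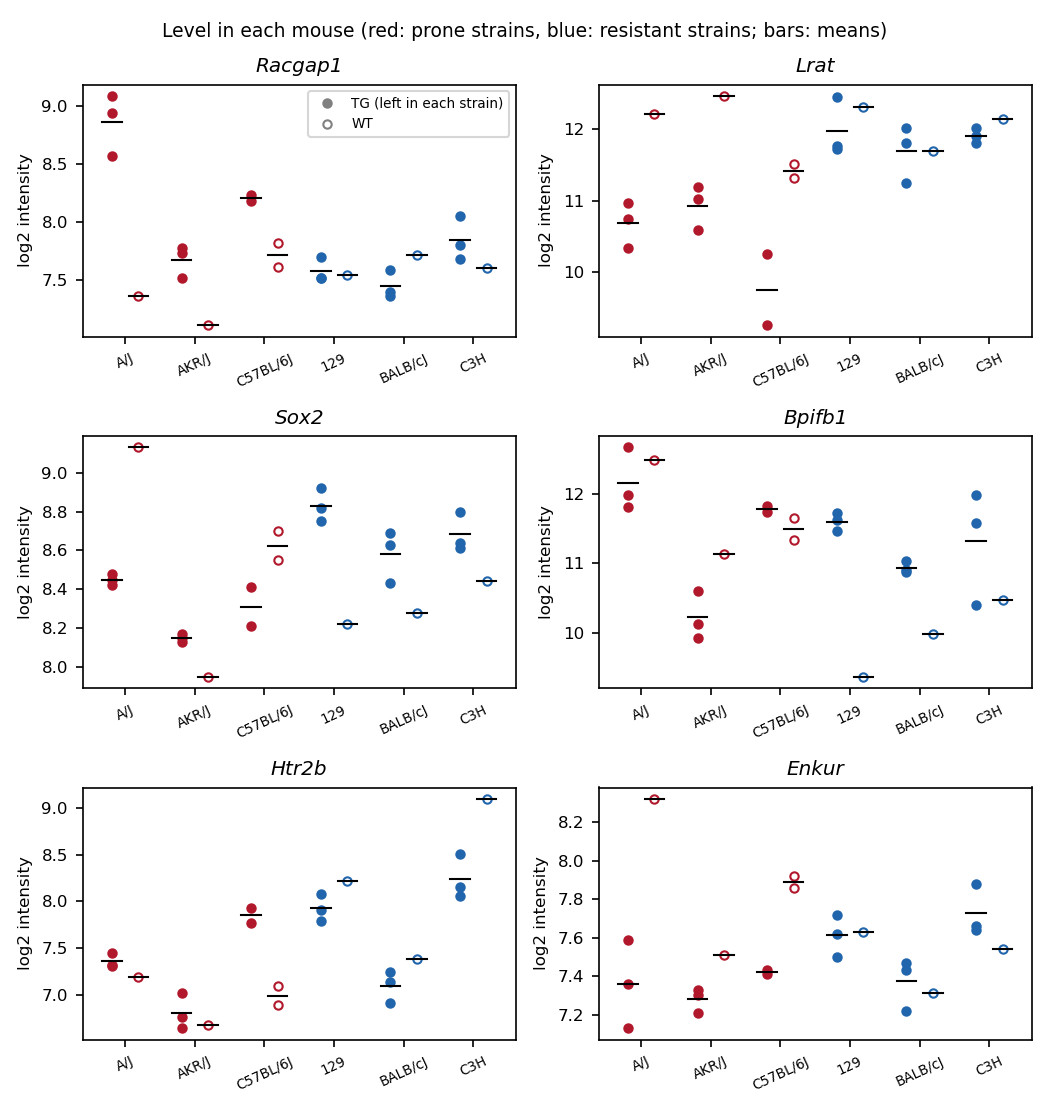
Level (y axis, log2 intensity) of 6 genes in each of the 24 mice by strain (x axis), with TG mice filled and left of the open WT mice, prone strains in red, resistant strains in blue and means as bars. All 8 prone TG mice lie above the WT mice of their strain for Racgap1 and below them for Lrat, while for Bpifb1 the resistant WT mice (9.37 to 10.47) lie below the prone ones (11.13 to 12.49).

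The strains of a set did not respond alike in some of these genes. The spread of TG effects within sets was called for 91 of 13499 genes (0.674%), 11 of which were among the 64, with 9 of the 11 called upward and 2 downward. Mark1, a microtubule affinity kinase, had an effect of 1.51 in C57BL/6J, against 0.40 in A/J and 0.44 in AKR/J (adjusted p = 0.029), and the smallest such p-values were those of P2ry12 (0.0035) and Dkk2 (0.0067). In other genes the agreement was closer. For Cxcl16 the prone effects were 0.76, 0.62 and 0.77, against 0.39, 0.50 and 0.25 in 129, BALB/cJ and C3H, and for H2-Q5 they were -0.78, -0.53 and -0.57, against 0.24, 0.31 and 0.05. Ogn, a small proteoglycan of connective tissue, fell by 1.13, 0.48 and 0.96 in the prone strains and by 0.24, 0.26 and 0.27 in the resistant ones, a difference of -0.60 ± 0.12 (adjusted p = 0.04).

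Lists of immune and other cells hold so few genes that the share of 0.474% over all genes would give none called in most of them. Of 9 neutrophil markers 0 were called, and their median was -0.57, or -0.17 without TG mouse 1 of 129. Of 10 markers of monocytes and interstitial macrophages all 10 rose in the prone strains (12% of all genes) and 4 in the resistant ones (4.92%), with a median difference of 0.21 and 0 called. All 8 platelet markers had a difference above 0 (median 0.37, 0 called), and without the WT mouse of BALB/cJ, which also takes BALB/cJ out of its set, the median was -0.03. Of 20 interferon-stimulated genes 18 were below 0 (median -0.24, 0 called). Their median prone minus resistant was 0.04 among TG mice and 0.26 among WT mice. Markers of alveolar type 1 cells, type 2 cells, fibroblasts and smooth muscle had medians of -0.01, -0.11, 0.05 and 0.06, with 0 called in each.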

How the data were processed

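Expression in mouse lung was measured on 24 whole-transcript arrays. The authors deposited 1 table of processed values for 25285 probe sets, read as log2 intensities from their range of 3.41 to 14.75. Log base, normalisation, software and genome build are not stated in the labels. No further scaling was applied, as array medians ranged from 7.76 to 7.83. The number of arrays limits the precision. The table was held in part: it covered 76.1% to 91.7% of the protein-coding genes of chromosomes 1 to 4 and 10 to 19, 26.3% for chromosome 5, and no more than 2.0% for chromosomes 6 to 9 and the X.

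Probe sets with 1 gene symbol in the platform annotation (14539; 781 had several and 9964 none; 1 incomplete probe set was left out) were reduced to the one of highest mean per symbol, giving 13499 genes, of which 590 had several. By Entrez identifier 14480 of the 14539 were found in RefSeq, with 0 changed symbols.

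A fit with 12 group means (strain by genotype) was made with limma 3.58.1 (lmFit, eBayes, two-sided; R 4.3.3; 12 residual degrees of freedom, median residual SD 0.104), and the spread of a lone WT mouse was taken to be that of other groups. Contrasts gave the TG effect in each set and their difference, and a moderated F test over 4 contrasts gave the spread within sets. Values are given ± SE, and p-values were adjusted over all 13499 genes by Benjamini and Hochberg's method, with a threshold of 0.05. The code was tested on simulated data. Python 3.11.15 with pandas 2.3.3 and matplotlib 3.10.9 made the tables and plots.

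Named genes were the 12 largest called differences each way, then the 6 largest each way, outside those, with separated strain effects, up to 4 called members of each list (or 1 or 2 of smallest p), and 11 fixed examples. Genes outside this rule are said to have been chosen after their values were seen. Members, lists and tests were chosen with earlier results of these data known. Promoters came from RefSeq (GRCm38.p6), with 56 of 77 named genes matched.

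The labels do not say whether the mice of a group are littermates. Replicate numbers did not pair the mice: deviations of mice with the same number in different strains correlated at -0.15 to 0.13 (30 pairs). Alternatives were array weights, a variance trend, a robust prior, other scalings, filters and probe set rules, a single TG effect per set, the strain as the unit, a replicate block, and leaving out each mouse or strain.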

Additional observations from a re-analysis of the deposited data

Results flagged for a closer look

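The difference of TG effects between prone and resistant strains was itself called for 64 genes. Effects called with opposite signs in the sets were seen for Htr2b (0.87), Cstad (0.66), Krtap10-4 (0.36), Cnih2 (0.31) and Sox2 (-0.65), where the number is prone minus resistant. Krtap10-4, a keratin-associated protein gene, had an effect of 0.19 in prone and -0.17 in resistant strains. Cnih2, an auxiliary protein of glutamate receptors, had 0.15 and -0.16. Both were chosen after their values were seen.

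Strains of a set differed among themselves by the moderated F test of limma in Lama1 (adjusted p = 0.028), Mark1 (0.029), Dkk2 (0.0067), Bub1b (0.029), Thbs2 (0.021) and Sox2 (0.046). The same was found in P2ry12 (0.0035), Bbof1 (0.016), Shc4 (0.017), Piezo2 (0.021) and Ntn1 (0.044), which were chosen after their values were seen. These 11 are all of the 64 genes in which that spread was called.

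Single mice stood apart in 7 of 108 groups tested, where chance gives about 1 in 20. They were the C57BL/6J WT mouse 1 for Lama1 (7.85) and the AKR/J WT mouse for Esm1 (9.37) and Diaph3 (6.25), each among 4 prone WT mice. Among 8 prone TG mice they were A/J TG mouse 3 for Mak (8.63) and Iqcg (7.94) and A/J TG mouse 2 for Chil1 (14.21). Among 9 resistant TG mice BALB/cJ TG mouse 3 was low for Fam161a (8.39). These groups hold several strains, so a strain's own level can set a mouse apart.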

How the results depend on the processing

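The count of genes called for the difference between sets (64) was 60 to 71 under a variance trend, a robust prior, other scalings, the filter on dim genes and the mean over probe sets. It was 289 with array weights, 14 with the replicate block, 1 with the strain as the unit, 0 with 1 TG effect per set and 10 for AKR/J minus BALB/cJ. Centring arrays on their medians split the calls into 46 upward and 25 downward, against 34 and 30. Leaving out 1 mouse gave 6 to 425 calls. Without a strain it was 8 (A/J), 363 (AKR/J), 5 (C57BL/6J), 4 (129), 1 (BALB/cJ) and 15 (C3H), and without the WT mice of BALB/cJ and C3H, a setting chosen after seeing the data, 8. Leaving out mice or strains also lowers the number of mice, but array weights kept all 24 mice and 12 residual degrees of freedom, and 1 TG effect per set had 16. The cause was not tested.

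The TG effect in prone strains (3172 genes) gave 1422 with the strain as the unit, 2009 without A/J, 1823 without C57BL/6J, 302 in AKR/J alone and 1821 to 3336 without 1 mouse. In resistant strains (1444) it gave 362 with the strain as the unit, 615 without 129, 700 without BALB/cJ, 291 in BALB/cJ alone, 398 without the WT mice of BALB/cJ and C3H, and 632 to 1602 without 1 mouse. The spread within sets (91 genes) gave 236 with array weights, 10 without AKR/J, 30 without C57BL/6J, 162 without the WT mice of BALB/cJ and C3H, and 11 to 159 without 1 mouse. The replicate block gave 2859, 1187 and 62 for these 3 counts.

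Signs turned for AKR/J minus BALB/cJ in Bbof1 (0.20), Cdkl4 (0.27), Ctla4 (-0.06), Dnah5 (0.08), Itgae (-0.09), Kif27 (0.05), Lama1 (-0.19), Lox (-0.32), Myl7 (0.10), P2ry14 (-0.11), Pcdhb17 (-0.08), Pmepa1 (-0.01), Shc4 (-0.16), Thbs2 (-0.33) and Themis (0.04). They turned without A/J or its WT mouse in Hc (-0.04), without C3H or its WT mouse in Fabp7 (-0.10), and without the WT mice of BALB/cJ and C3H in Col3a1 (-0.02), Ms4a1 (0.01) and P2ry12 (-0.04). Without 1 mouse Hc ranged from -0.04 to 0.45 and Fabp7 from -0.10 to 0.83. Of these genes Bbof1, Cdkl4, Ctla4, Kif27, Lama1, P2ry12, P2ry14, Pcdhb17, Shc4 and Thbs2 were called in the main comparison.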

Other observations

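Some called genes belong to no list described above, and all were chosen after their values were seen. Aldh18a1, the enzyme that makes the precursor of proline, rose in both sets, by 0.85 in prone and 0.39 in resistant strains (difference 0.46 ± 0.09, limma adjusted p = 0.039). Piezo2, a mechanosensitive channel, rose by 0.43 in the prone strains, with 0.52 in AKR/J and 0.76 in C57BL/6J but 0.01 in A/J. Its difference of 0.38 was 0.60 without the WT mouse of A/J and 0.24 without that of BALB/cJ (adjusted p = 0.27). Slc45a4, a sugar transporter family gene, fell in the resistant strains by 0.46 and had -0.06 in the prone ones, where its TG effect was not called (adjusted p = 0.55). Its WT level was 9.56 to 9.77 in the prone strains, against 10.02 to 10.19 in the resistant ones.

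On the downward side, Plpp3, which dephosphorylates lysophosphatidic acid, fell by 0.77 and 0.30 (difference -0.47 ± 0.10, adjusted p = 0.042), and without the WT mouse of A/J the difference was -0.29 (adjusted p = 0.43). Slc10a5, a gene of the bile acid transporter family, fell by 0.90 and 0.44 (-0.46 ± 0.09, adjusted p = 0.039). Vpreb3, a gene of early B cells, fell by 0.94 and 0.44 (-0.51 ± 0.11, adjusted p = 0.047), while 0 of 10 markers of B and plasma cells were called, with a median difference of -0.06. For all 3 genes every prone strain effect lay below every resistant one.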
